A study of Mus musculus with 2 samples.

Results

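The 38 genes described here are markers of the dividing cell: 15 act in DNA replication, 22 act in mitosis, and Stmn1 encodes a regulator of microtubules. They were picked by symbol as known cell cycle genes, and all 38 were found among the 32285 genes of single-cell RNA sequencing (scRNA-seq) libraries from mouse colon lamina propria. Per the study, immune cells were prepared from the colon of adult male mice on a Percoll gradient. Cells labelled cd11b+ were sorted, with the mice of a genotype pooled. The paper describes removal of dead cells by 7-AAD staining under flow cytometry. There were 2 libraries, 1 for each genotype. The library titled Runx3_fl came from Runx3 fl/fl littermates, which carry the floxed allele but no Cre. The library titled Runx3 came from Runx3 fl/fl mice with Lyz2-Cre, in which the promoter of the lysozyme gene drives Cre in myeloid cells. The genotypes are those of the study's methods, since the labels give only the titles, and both groups share the floxed allele. With 1 library per genotype there is no replicate check, so no test was made between libraries. The 95% intervals given here cover counting error only, and a difference between the libraries cannot be told apart from a difference between pools of mice, sorts or preparations.

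The cell cycle copies the genome in S phase and divides it in mitosis. The transcripts of replication enzymes build up as cells enter S phase under the E2F transcription factors. Those of the mitotic machinery build up later, under the MuvB complex with B-MYB and FOXM1. MuvB reads CHR elements in promoters, and NF-Y binds CCAAT boxes. In the gut wall, proliferating immune cells include activated T cells, plasmablasts and local precursors, whereas mature neutrophils do not divide.

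Cells with 200 to 6000 detected genes and at most 15% mitochondrial UMIs (unique molecular identifiers, 1 per captured transcript) were kept. These were 11885 cells of the Runx3_fl-labelled library and 8167 of the Runx3-labelled library, of 12968 and 8953 barcodes. Depth differed: the kept cells held a median of 9573 UMIs in the first and 5731 in the second. Because a deeper cell shows more members by depth alone, each share is also given with UMIs drawn at random down to 2000 in every cell, for which 616 and 1868 cells were too shallow. The libraries had 37 barcodes in common. The label of the deleted gene could not be read from its own transcript: in cells gated as macrophages Runx3 was at 151.9 CPM (UMI counts scaled to a common library total) in the Runx3_fl-labelled library and at 250.5 CPM in the Runx3-labelled library, and a 3′ tag need not lie in the deleted part. Although the study describes male mice, 29.85% of kept cells of the Runx3_fl-labelled library held an Xist UMI, against 0.1224% in the Runx3-labelled library. Itgam, which encodes CD11b, had a UMI in 44.57% and 38.17% of kept cells.

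Cells were put in 8 classes by 1 UMI of a gate gene: Ncr1 for NK cells, Cd3e for T cells, Cd79a for B cells, Xcr1 for type 1 and Cd209a for type 2 conventional dendritic cells (cDC1 and cDC2), Csf1r with C1qa for macrophages, Csf3r for neutrophils, and Ly6c2, without any other gate, for monocytes. In 7 of the classes the median marker of the fixed list was seen in a larger share of its cells than of the other kept cells, in both libraries. Each list also holds the gate gene or genes, which every gated cell has by the rule, so the lists are only in part a separate check. In the T gate the median marker had a UMI in 92.36% of cells of the Runx3_fl-labelled library, against 9.553% of the other cells. In the Runx3-labelled library it was 61.50% against 4.197%. The median marker of innate lymphoid cells had a UMI in 18.90% and 29.25% of T-gated cells. The Ly6c2 gate did not separate this way. Its monocyte markers had a median of 51.18% against 41.19% in the Runx3_fl-labelled library and of 31.79% against 39.27% in the Runx3-labelled library, so it is called the Ly6c2 gate here. Cells that met several gates made up 9.659% and 17.11% of kept cells, and cells that met none 24.39% and 11.98%.

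Over all kept cells, cells with many members were more frequent in the Runx3_fl-labelled library. In that library 4557 cells, or 38.34% (interval 37.47 to 39.22), had a UMI for 5 or more members, against 1537 cells, or 18.82% (17.98 to 19.68), in the Runx3-labelled library. Summed over the members, the level was 2225 CPM (2217 to 2233) in the first and 904.2 CPM (896.9 to 911.5) in the second, a log2 ratio of Runx3 over Runx3_fl of -1.30. At 2000 UMIs a cell the shares became 15.09% and 2.588%. In percentage points the difference was -19.52 before and -12.50 after the thinning, and in both cases its interval lay below 0.

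By class, the shares lay furthest apart in T cells, B cells and cDC1. In the T gate 68.00% of 2841 cells had 5 or more members in the Runx3_fl-labelled library (66.25 to 69.72) and 27.50% of 400 cells in the Runx3-labelled library (23.18 to 32.16). At equal depth these shares were 37.65% and 2.162%. The makeup of the T gate differed, as 455 of the 2841 cells and 204 of the 400 cells had neither Cd4 nor Cd8a. In the B gate the shares were 57.14% of 427 cells (52.30 to 61.89) and 15.32% of 1416 cells (13.49 to 17.31), and at equal depth 34.04% and 1.784%. The makeup of the B gate differed, with 3 or more plasma cell markers in 61.12% and 9.393% of its cells. Without these cells the difference was -2.96 percentage points in place of -41.82. Among the cells with these markers alone it was -42.92 (-51.84 to -33.08), and -47.54 (-54.29 to -39.23) at equal depth. In cDC1, the dendritic cells that cross-present antigen, the shares were 69.63% of 349 cells (64.51 to 74.41) and 36.73% of 49 cells (23.42 to 51.71). At equal depth they were 25.58% (21.05 to 30.54) and 9.302% (2.593 to 22.14). At equal depth the difference was -35.49 percentage points in T cells (-37.58 to -32.78), -32.26 in B cells (-36.94 to -27.82) and -16.28 in cDC1 (-23.71 to -3.241). T cells alone gave 42.40% of the cells with 5 or more members in the Runx3_fl-labelled library and 7.157% in the Runx3-labelled library.

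The other classes lay closer together at equal depth. In the Ly6c2 gate 30.31% of 1102 cells and 8.997% of 1834 cells had 5 or more members, but their median depth was 9779.5 and 2534 UMIs. For the thinning 63 and 821 of these cells were too shallow. At equal depth the shares were 5.294% (4.012 to 6.835) of the 1039 cells left and 2.567% (1.683 to 3.738) of the 1013 left. In macrophages 30.61% of 245 cells and 15.16% of 277 cells reached 5 members. At equal depth 2.092% (0.6827 to 4.814) and 0.4386% (0.01110 to 2.419) did, a difference of -1.653 percentage points whose interval reached from -4.388 to 0.6795. In cDC2 the shares were 31.90% of 232 cells and 34.98% of 243 cells, a difference of 3.083 percentage points with an interval from -5.390 to 11.47. At equal depth they were 6.061% and 5.381%, a difference of -0.6794 (-5.156 to 3.813). In NK cells they were 27.62% of 1300 cells and 37.62% of 101 cells, and at equal depth 4.552% (3.483 to 5.833) and 10.10% (4.951 to 17.79), a difference of 5.549 percentage points (0.8507 to 13.12). Neutrophils had the lowest share in the Runx3_fl-labelled library, 11.85% of 1342 cells, and 0.4052% at equal depth. In the Runx3-labelled library the share was 15.08% of 1472 neutrophil-gated cells, and 3.645% at equal depth. In that library 146 of the gated cells held UMIs of 3 or more markers of immature granulocytes, and the others were at 12.22%, and at 0.5597% (0.2057 to 1.214) at equal depth. Mature neutrophils do not divide, but this gate was not shown to hold them alone. Its macrophage markers had a median of 24.52% in the Runx3_fl-labelled library, against 10.90% in the other kept cells. The 0.5597% also rests on a split chosen after the values were seen. The shares of the whole gate at equal depth, 0.4052% and 3.645%, therefore stand beside the other classes.

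**Figure D1:**
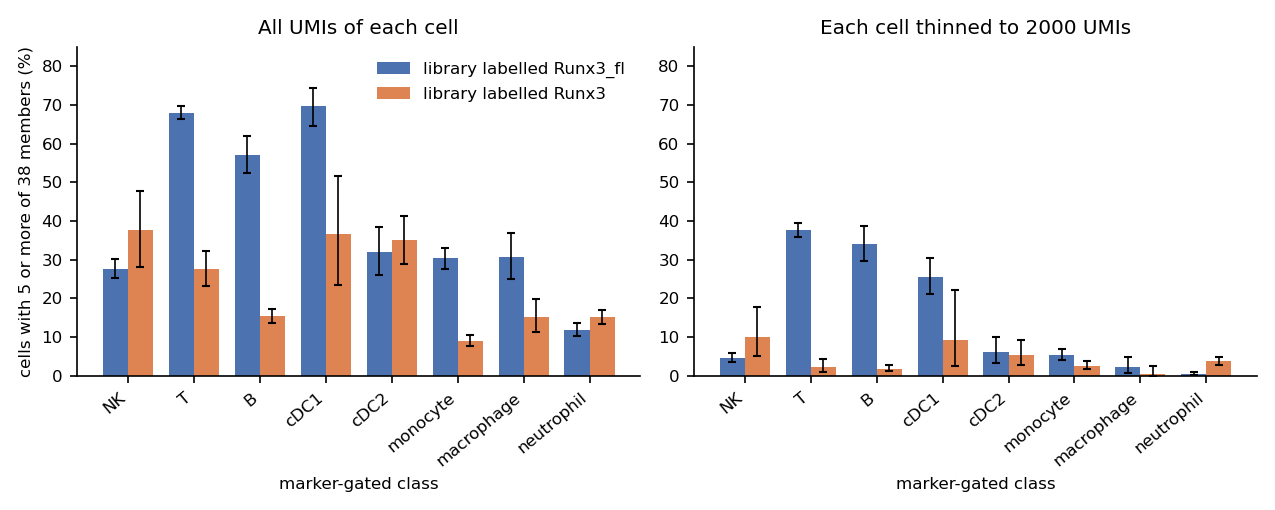
Share of cells (%, vertical axis) in which 5 or more of the 38 members had a UMI, by marker-gated class (horizontal axis) and library, from all UMIs of each cell (left) and after thinning each cell to 2000 UMIs (right); bars are shares and whiskers are 95% Clopper-Pearson intervals of counting error, with 1 library per genotype. T cells (68.00% against 27.50%) and B cells (57.14% against 15.32%) stood apart between the libraries, and did so at equal depth as well (37.65% against 2.162%, and 34.04% against 1.784%). B-gated cells with fewer than 3 plasma cell markers were at 1.235% and 1.209% at equal depth, and those with 3 or more at 54.41% and 6.870%. The class named "monocyte" is the Ly6c2 gate.

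Many of these cells held far more than 5 members. In T cells of the Runx3_fl-labelled library the median cell had 8 members and 47.69% of cells had 10 or more, against a median of 3 members and 3.750% in the Runx3-labelled library. In B cells 43.56% and 2.401% had 10 or more, and in cDC1 43.84% and 16.33%. In NK cells the order was the other way round, with 5.538% and 16.83%. In neutrophils 1.043% and 4.144% reached 10 members. In macrophages the shares were 2.857% and 2.166%.

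**Figure D2:**
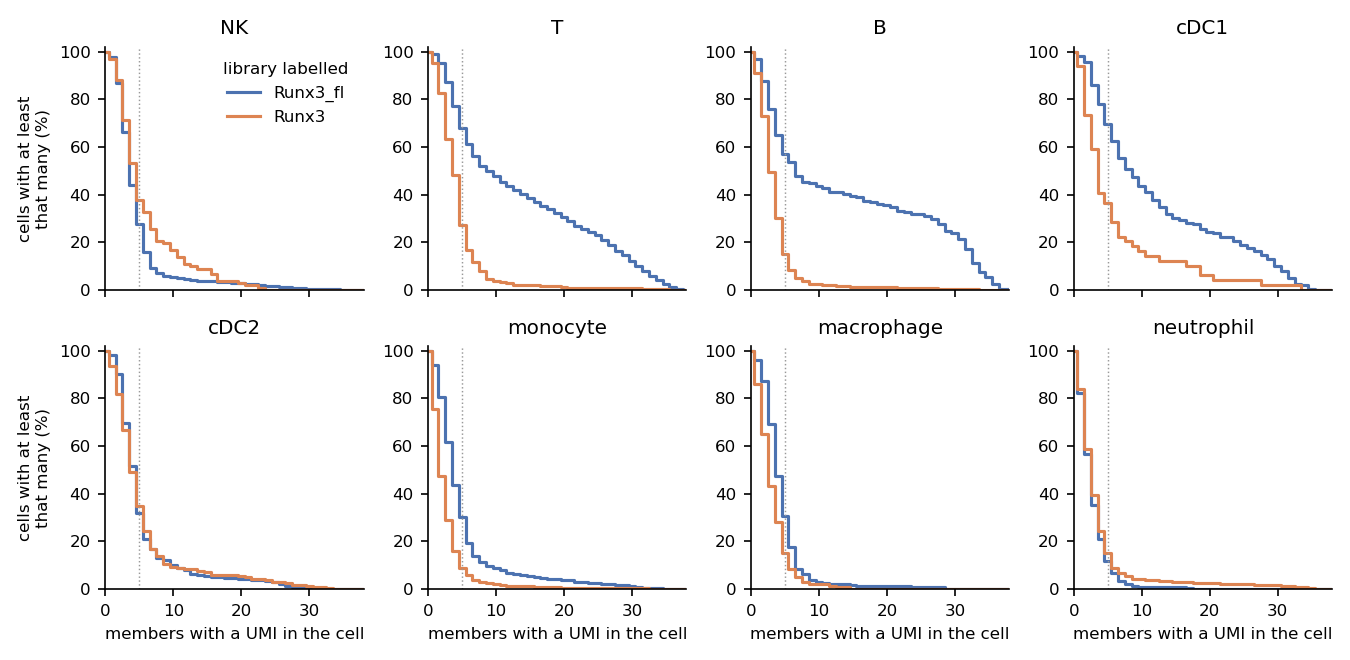
Share of cells (%, vertical axis) with at least the number of members given on the horizontal axis, for each marker-gated class and library; the dotted line marks 5 members and "monocyte" is the Ly6c2 gate. The T, B and cDC1 curves of the Runx3_fl-labelled library kept a long shoulder, with 47.69%, 43.56% and 43.84% of cells at 10 or more members, whereas macrophages (2.857%) and neutrophils (1.043%) of that library were low there.

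In UMIs summed over each class, in which deeper cells weigh more, T and B cells again lay furthest apart. The members together were at 3911 CPM (3891 to 3930) in T cells of the Runx3_fl-labelled library and at 993.3 CPM (959.7 to 1028) in those of the Runx3-labelled library, a log2 ratio of -1.98. In B cells they were at 3588 and 819.0 CPM, a log2 ratio of -2.13. In cDC1 they were at 2409 and 1384 CPM, a log2 ratio of -0.799. With a gate of 2 UMIs in place of 1, the cDC1 ratio was -0.0871 and that of its mitosis members 0.195. In the Ly6c2 gate they were at 1143 and 888.7 CPM and in macrophages at 784.0 and 592.8 CPM. In 3 classes the sum was higher in the Runx3-labelled library: NK cells at 1058 and 1274 CPM, cDC2 at 961.7 and 1157 CPM, and neutrophils at 601.1 and 1225 CPM. When cells that met several gates were counted in each of them, the direction turned in all 3, to -0.239, -0.165 and -0.182.

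The 6 members with the most UMIs were, in order, Pcna, Top2a, Mki67, Pclaf, Stmn1 and Mcm6. Transcripts are counted at their 3′ ends, so levels are compared between libraries and classes, not between genes. Pcna, the sliding clamp of DNA polymerases, was at 447.9 CPM in T cells of the Runx3_fl-labelled library and 327.9 CPM in those of the Runx3-labelled library. Even in neutrophils it was at 208.8 and 249.6 CPM. Over the 8 classes it lay between 186.8 and 447.9 CPM in the first library and between 191.4 and 356.2 CPM in the second, and a Pcna UMI was held by 77.79% and 62.90% of all kept cells. Pclaf, which encodes a small partner of Pcna on replicating DNA, differed far more. It was at 381.4 and 17.18 CPM in T cells, at 290.2 and 27.62 CPM in B cells, and at 7.947 and 53.16 CPM in neutrophils. Mcm6, a subunit of the MCM helicase that opens the DNA, was at 165.0 and 50.03 CPM in T cells and at 8.652 and 21.54 CPM in neutrophils.

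Among the mitosis members, Top2a, the topoisomerase that disentangles chromosomes, was at 386.5 and 42.19 CPM in T cells, at 392.6 and 46.44 CPM in B cells, and at 27.66 and 79.06 CPM in neutrophils. Mki67, which encodes the coat protein of mitotic chromosomes used as the Ki-67 marker, was at 265.6 and 30.14 CPM in T cells and at 414.2 and 30.08 CPM in B cells. In neutrophils, however, it was at 141.5 and 116.8 CPM, and in macrophages at 227.2 and 50 CPM. Stmn1, which encodes a protein that destabilises microtubules, was at 306.9 and 55.45 CPM in T cells and at 25.85 and 95.82 CPM in neutrophils. Of these 6 members, Mki67 was the one for which neutrophils of the Runx3-labelled library were below those of the Runx3_fl-labelled library, at a log2 ratio of -0.276 (-0.386 to -0.169).

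Pcna and Mki67 gave a large share of the member UMIs in neutrophils and macrophages. In neutrophils of the Runx3_fl-labelled library they gave 34.74% and 23.55% of all member UMIs, and in macrophages 26.97% and 28.98%. In T cells of that library, Pcna gave 11.45% and Mki67 6.793%. Both were also seen in many cells with fewer than 5 other members. Over all kept cells of the Runx3_fl-labelled library, a Pcna UMI was seen in 94.36% of cells with 5 or more other members and in 70.33% of the rest, a log2 ratio of its CPM of 0.858. For Mki67 the shares were 63.08% and 24.09%, with a log2 ratio of 1.65. For Pclaf they were 48.06% and 2.646%, with a log2 ratio of 6.04. For Hmmr, whose product guides the mitotic spindle, they were 21.99% and 0.3682%, with a log2 ratio of 4.61. For Ccna2, which encodes cyclin A2, they were 29.96% and 0.8984%, with a log2 ratio of 4.54. Aurka, Kif23 and Cenpa came next after Pcna at the low end, with log2 ratios of 0.901, 0.903 and 1.11. These ratios describe how members were seen together within 1 library, and cells of higher depth hold more of every gene.

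The promoters of the members are given because the members varied together across cells. RefSeq promoters of build GRCm38.p6, with 250 bases before and 50 bases after each gene start, were at hand for 32 of the 38 members; Ccna2, Aurkb, Tpx2, Mcm4, Gins2 and Stmn1 were not matched. Words were searched on both strands: TTTGAA, the core of the CHR element; CCAAT, the box bound by NF-Y; and TTTCCCGC, TTTGGCGC and TTTCGCGC, forms of the E2F site that can overlap one another on opposite strands. Of the 19 mitosis members, 14 (73.7%) held the CHR word and 17 (89.5%) the CCAAT word, and the same 14 held both. Of the 13 replication members, 1 (7.69%) held the CHR word, 10 (76.9%) the CCAAT word and 7 (53.8%) an E2F word, whereas 1 mitosis member (5.26%), Cdk1, held an E2F word. Among all 27025 genes of the table, 20.2% held the CHR word, 41.1% the CCAAT word, 8.97% both, and 2.12% an E2F word. A match is a run of letters and not a bound site.

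The 2 mitosis members with the most UMIs are shown first, over the 150 bases before their starts, because both carry the CHR and CCAAT words. The matches are in capitals, on whichever strand they lie. Top2a lies on the minus strand at chr11:99024190-99024339 and Mki67 on the minus strand at chr7:135716380-135716529.
Top2a: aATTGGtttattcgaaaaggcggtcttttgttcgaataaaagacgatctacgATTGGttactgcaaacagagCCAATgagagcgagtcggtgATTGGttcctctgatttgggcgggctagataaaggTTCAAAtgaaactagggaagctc
Mki67: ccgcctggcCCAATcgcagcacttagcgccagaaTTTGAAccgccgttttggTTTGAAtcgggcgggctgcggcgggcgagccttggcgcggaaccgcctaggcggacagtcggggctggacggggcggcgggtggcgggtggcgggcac
Counted from the gene start, the CHR word of Top2a shown lies at -23 to -18. Another, not shown, lies at -179 to -174. Those of Mki67 lie at -116 to -111 and at -98 to -93.

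The 2 replication members with the most UMIs, Pcna (chr2:132253250-132253279, minus strand) and Pclaf (chr9:65890245-65890274, plus strand), are shown over 30 bases around their first CCAAT word, in capitals.
Pcna: accacgggtacgATTGGtccttgaggagag
Pclaf: tggacgctgtcaATTGGtccagagtgaagg
An E2F word was held by 53.8% of the replication members and 5.26% of the mitosis members. All 7 replication members with one are shown next over 30 bases around it, the word in capitals. They lie at chr9:65890307-65890336 (Pclaf, plus strand), chr1:20820275-20820304 (Mcm3, minus), chr8:75109345-75109374 (Mcm5, plus), chr1:128359797-128359826 (Mcm6, minus), chr5:138172030-138172059 (Mcm7, minus), chr11:98908002-98908031 (Cdc6, plus) and chr17:56304117-56304146 (Uhrf1, plus).
Pclaf: gcttggagcgcGCGGGAAAgagacccattt
Mcm3: aaacttccgtgGCGGGAAAacttgggaagt
Mcm5: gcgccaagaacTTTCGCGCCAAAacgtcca
Mcm6: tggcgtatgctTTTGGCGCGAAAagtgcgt
Mcm7: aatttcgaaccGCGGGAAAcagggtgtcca
Cdc6: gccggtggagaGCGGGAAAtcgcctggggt
Uhrf1: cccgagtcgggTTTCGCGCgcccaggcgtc
Mcm5 and Mcm6, which encode subunits of the helicase ring, each hold a pair of overlapping words on opposite strands.

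Member by member, T cells had every member on the same side. All 38 members passed the filter of 10 UMIs over both libraries. For all 38 the interval of the log2 ratio lay below 0, a call that was not counted over all genes. In 34 the level was at least 1 log2 unit higher in the Runx3_fl-labelled library, where 7.07% of the 15138 genes tested in T cells were, and in 0 it was as much higher in the Runx3-labelled library, where 13.8% of genes were. The median log2 ratio was -2.375 for the members and 0.101 for all genes. The widest differences were in Pclaf at -4.39 (-4.87 to -4.10), in Cenpf at -3.85 and in Ube2c at -3.54. Cenpf, which encodes a kinetochore protein, was at 43.76 and 2.110 CPM. Ube2c, which encodes the E2 enzyme of the anaphase-promoting complex, was at 126.2 and 9.946 CPM. The smallest differences were in Kif23, a kinesin of cytokinesis, at -0.416 (57.42 and 42.80 CPM), in Pcna at -0.449, and in Aurka, a centrosome kinase, at -0.532 (11.77 and 7.836 CPM).

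In B cells, too, 34 of 38 members were at least 1 log2 unit higher in the Runx3_fl-labelled library, beside 11.8% of 14269 genes, and 0 were as much higher in the Runx3-labelled library, beside 18.7%. Without the cells that had 3 or more plasma cell markers, 36 members passed the filter, of which 1 was as much higher in the Runx3_fl-labelled library (3.86% of 12653 genes) and 4 in the Runx3-labelled library (9.18%). Ube2c was at 140.2 and 8.891 CPM, a log2 ratio of -3.84. Hmmr was at 72.75 and 4.256 CPM, a log2 ratio of -3.81, and Mki67 had a log2 ratio of -3.74. Cenpa, which encodes the histone variant of centromeres, was the one member with an interval above 0, at 57.24 and 69.61 CPM and a log2 ratio of 0.278 (0.114 to 0.452), which turned to -0.0253 when cells of several gates were counted and to -0.115 without the plasma cell markers. Pcna was at 262.6 and 227.2 CPM (-0.208) and Kif23 at 34.27 and 19.67 CPM (-0.771).

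In neutrophils 30 of 38 members were at least 1 log2 unit higher in the Runx3-labelled library, beside 13.8% of 14993 genes, and 0 were as much lower, beside 2.64%. The count was 17 with a pseudocount of 10 CPM, and 0 when cells of several gates were counted. Without the 146 cells with immature granulocyte markers, 1 member was past 1 log2 unit in each direction, beside 12.6% of 14717 genes toward the Runx3-labelled library and 2.2% toward the other. Ube2c was at 3.420 and 32.14 CPM (log2 ratio 2.91), Cenpf at 1.308 and 14.53 CPM (2.75) and Rrm2, a subunit of ribonucleotide reductase, at 3.923 and 30.77 CPM (2.69). Neutrophils stood above at least 1 other class for 16 members in the Runx3_fl-labelled library and for all 38 in the Runx3-labelled library. In this gate the fixed neutrophil markers were moderate in frequency: S100a8 had a UMI in 43.89% and 70.65% of cells, and Cxcr2, a receptor of mature neutrophils, in 30.03% and 22.01%. In the Runx3-labelled library, S100a8 was also seen in 51.25% of T cells, so that S100a8 alone does not mark a cell there.

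In the Ly6c2 gate 3 of 38 were higher in the Runx3_fl-labelled library (2.02% of 15103 genes) and 0 in the Runx3-labelled library (13.3%). They were Ube2c (26.92 and 10.21 CPM), Mki67 (157.1 and 69.67 CPM) and Ccnb1, which encodes cyclin B1 (5.010 and 1.997 CPM). When all kept cells with Ly6c2 were counted, also those of other gates, the gate grew to 5544 and 5627 cells and the 3 became 33. Toward the Runx3-labelled library the leading members were Tpx2, Plk1 and Stmn1. Tpx2, a spindle assembly factor, was at 0.516 (0.190 to 0.929), or at -1.28 over all kept cells with Ly6c2. Plk1, a mitotic kinase, was at 0.395 (-0.271 to 1.37), and Stmn1 at 0.0964 (-0.0494 to 0.244). In cDC2, 3 of 38 were higher in the Runx3-labelled library (13.6% of 11492 genes) and 0 in the Runx3_fl-labelled library (2.15%). In macrophages 33 members passed the filter, of which 8 were higher in the Runx3_fl-labelled library (3.6% of 11542 genes) and 2 in the Runx3-labelled library (15.5%). The 8 became 2 with a pseudocount of 10 CPM or a gate of 2 UMIs and 4 with a filter of 50 UMIs. There, Mki67 was at 227.2 and 50 CPM, a log2 ratio of -2.16, while the median over members was 0.077. The 49 cDC1 of the Runx3-labelled library were under the minimum of 50 cells for ratios of single members.

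In NK cells 13 of 15 replication members had a log2 ratio above 0 and 19 of 22 mitosis members one below 0. The share of all genes on each side was not counted, and the median over all genes was 0.051. Many of these ratios rest on few UMIs in the 101 cells of the Runx3-labelled library. The interval lay above 0 for 9 members and below 0 for 5. Past 1 log2 unit there were 6 of 38 members higher in each library, beside 6.91% of 12347 genes higher in the Runx3-labelled library and 6.16% higher in the Runx3_fl-labelled library. With cells of several gates counted, 2 were higher in the Runx3-labelled library and 16 in the Runx3_fl-labelled library, and with a pseudocount of 10 CPM 3 and 1 were. Of the replication members, Mcm5 was at 17.00 and 68.94 CPM (log2 ratio 1.96, 1.61 to 2.42), Mcm2 at 12.18 and 48.83 CPM (1.92) and Uhrf1, a reader of newly copied methylated DNA, at 7.711 and 24.90 CPM (1.57). Rrm2 lay on the other side, at -0.623 (-2.04 to 0.389). Of the mitosis members, Ube2c was at 23.48 and 2.873 CPM (-2.66), and Plk1 and Aurka lay on the other side, at 0.906 (-0.742 to 2.88) and 0.673 (-0.858 to 2.25). Ccnb2, Hmmr and Bub1 had 0 UMIs in the 101 NK cells of the Runx3-labelled library. Against the 3 counts that a count of 0 allows in that library, Ccnb2 was at least 3.17-fold, Hmmr at least 2.17-fold and Bub1 at least 1.68-fold higher in the Runx3_fl-labelled library. With these 3 members at their bounds, 5 rather than 6 were past 1 log2 unit, and the median stayed at -0.155.

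**Figure D3:**
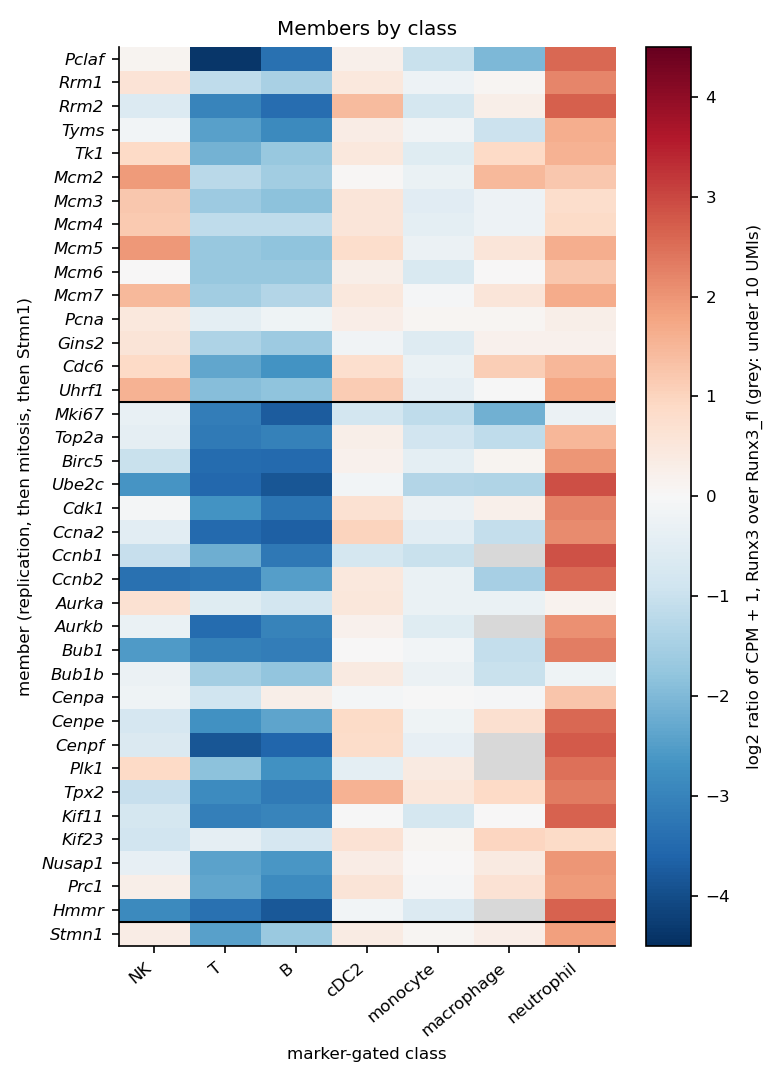
Log2 ratio (colour) of each member's level (CPM, with 1 added) for Runx3 against Runx3_fl, by gated class (columns), with replication members above the first line, mitosis members between the lines and Stmn1 last; grey cells had under 10 UMIs over both libraries, cDC1 is left out for its 49 cells in 1 library, and "monocyte" is the Ly6c2 gate. T and B cells are blue for 34 of 38 members past 1 log2 unit each. Without the cells with plasma cell markers, 1 of 36 members in B cells was past it toward Runx3_fl and 4 toward Runx3. Summed over the B-gated cells with 3 or more of those markers, the members had a log2 ratio of -2.05. Neutrophils are red for 30 of 38 (1 without the cells with immature granulocyte markers). In NK cells Mcm5 (1.96) and Mcm2 (1.92) are red while Ube2c (-2.66) is blue.

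Summed by role, the mitosis members differed more between libraries than the replication members in T and B cells. In T cells the replication members were at 1860 and 666.4 CPM (log2 ratio -1.48, -1.54 to -1.42) and the mitosis members at 1744 and 271.5 CPM (-2.68, -2.78 to -2.59). In B cells the log2 ratios were -1.55 (-1.60 to -1.50) and -2.81 (-2.87 to -2.76). Without the cells with plasma cell markers they were 0.382 and -0.233, and in those cells alone -1.71 and -2.36. In macrophages they were 0.0632 (-0.0748 to 0.201) and -1.04 (-1.20 to -0.889). The macrophage value for mitosis rested largely on Mki67, which held 227.2 of the 416.7 CPM in the Runx3_fl-labelled library and had a log2 ratio of -2.16. Other mitosis members lay on both sides there, such as Top2a at -1.14 and Kif23 at 0.955, and the median over the 33 members tested was 0.077. The macrophage sum without Mki67 was not taken. In NK cells the roles went opposite ways, with 0.681 (0.581 to 0.782) for replication and -0.571 (-0.746 to -0.403) for mitosis, but at equal depth the values were 0.489 and -0.119. In cDC1 they were at -0.824 and -0.813, at -1.44 and -1.01 at equal depth, and at -0.555 and 0.195 with a gate of 2 UMIs. In neutrophils they were at 0.887 and 1.05, and at 0.460 and 0.305 at equal depth.

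Within single T cells at equal depth, 15.25% of cells of the Runx3_fl-labelled library had 3 or more replication members and fewer than 3 mitosis members, 7.820% had the reverse, and 19.82% had 3 or more of both. In the Runx3-labelled library the shares were 3.243%, 0.5405% and 0.2703% of 370 cells. In B cells of the Runx3_fl-labelled library, mitosis alone (12.29%) was more frequent than replication alone (5.437%), with 19.15% for both. In NK cells of the Runx3-labelled library, 13.13% of 99 cells had replication members alone, 1.010% mitosis members alone and 2.020% both. These classes are ranges of a count, and cells near the limit of 3 members can fall on either side.

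T cells with 5 or more members were found among both Cd4 and Cd8a cells. Split by the co-receptors after their values had been seen, 72.48% of 1261 Cd4 cells and 72.96% of 1080 Cd8a cells of the Runx3_fl-labelled library had 5 or more members. In the Runx3-labelled library the shares were 31.40% of 121 Cd4 cells and 34.72% of 72 Cd8a cells. At equal depth, Cd8a cells were at 47.45% (44.44 to 50.48) and 1.389% (0.03516 to 7.497), and Cd4 cells at 36.11% and 5.000%. T cells with neither co-receptor were at 16.06% and 0.5714%. Gzmb, which encodes the cytotoxic protease granzyme B, had a UMI in 97.86% of T cells of the Runx3_fl-labelled library with 10 or more members, in 78.99% of those with fewer than 5, and in 22.75% of all T cells of the Runx3-labelled library.

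In the B gate the cells with many members carried plasma cell markers. Jchain and Mzb1, genes of plasma cells and plasmablasts, each had a UMI in 98.92% of B-gated cells with 10 or more members of the Runx3_fl-labelled library, whereas Ms4a1, which encodes CD20 of mature B cells, had one in 8.065%. In cells with fewer than 5 members the shares were 31.69%, 51.37% and 51.37%. When the gate was split after these values had been seen, 261 cells of the Runx3_fl-labelled library and 133 of the Runx3-labelled library had 3 or more of 5 plasma cell markers. Of these, 83.52% and 40.60% had 5 or more members, or 54.41% and 6.870% at equal depth. In these cells the members summed to 4088 and 985.4 CPM, a log2 ratio of -2.05 (-2.11 to -2.00). The B-gated cells with fewer of these markers were at 15.66% of 166 cells and 12.70% of 1283 cells, at 1.235% and 1.209% at equal depth, and at 661.5 and 759.2 CPM. Without the cells that had plasma cell markers, the log2 ratio of the summed members in the B gate was 0.199 (0.0922 to 0.307), against -2.13 with them.

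In the neutrophil gate of the Runx3-labelled library, cells with many members held UMIs of immature granulocyte markers more often than the rest. Of 6 markers of immature granulocytes (Mpo, Elane, Prtn3, Ltf, Camp and Ngp), 3 or more were seen in 146 cells (9.918%, 8.439 to 11.56) of the Runx3-labelled library and in 0 of 1342 cells of the Runx3_fl-labelled library, which allows a share of up to 0.224%. Transcripts of these markers were also found outside the gate in the Runx3-labelled library, where the median marker had a UMI in 14.78% of neutrophil-gated cells, in 8.133% of the other kept cells and in 7.125% of T cells, against 0.5216%, 0.4790% and 0.2464% in the Runx3_fl-labelled library. At least 3 of them were seen in 1.250% (0.4071 to 2.893) of T cells and 0.7768% (0.3884 to 1.386) of B cells of the Runx3-labelled library. The part of free RNA in the count of 146 was not tested. These 146 cells had 5 or more members in 41.10% (33.03 to 49.53), or 28.15% at equal depth, and held 3725 CPM of the members. The other neutrophil-gated cells were at 601.1 and 616.1 CPM, a log2 ratio of 0.0356 (-0.0167 to 0.0880), with replication members at 0.239 and mitosis members at -0.354, and at 0.4052% and 0.5597% at equal depth. Elane, the neutrophil elastase gene of promyelocytes, had a UMI in 40.98% of the 61 neutrophil-gated cells with 10 or more members of the Runx3-labelled library and in 1.360% of those with fewer than 5. Camp and Ngp, genes of neutrophil granule proteins, were at 72.13% each and at 22.40% and 26.88%. The split was chosen after the values were seen.

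**Figure D4:**
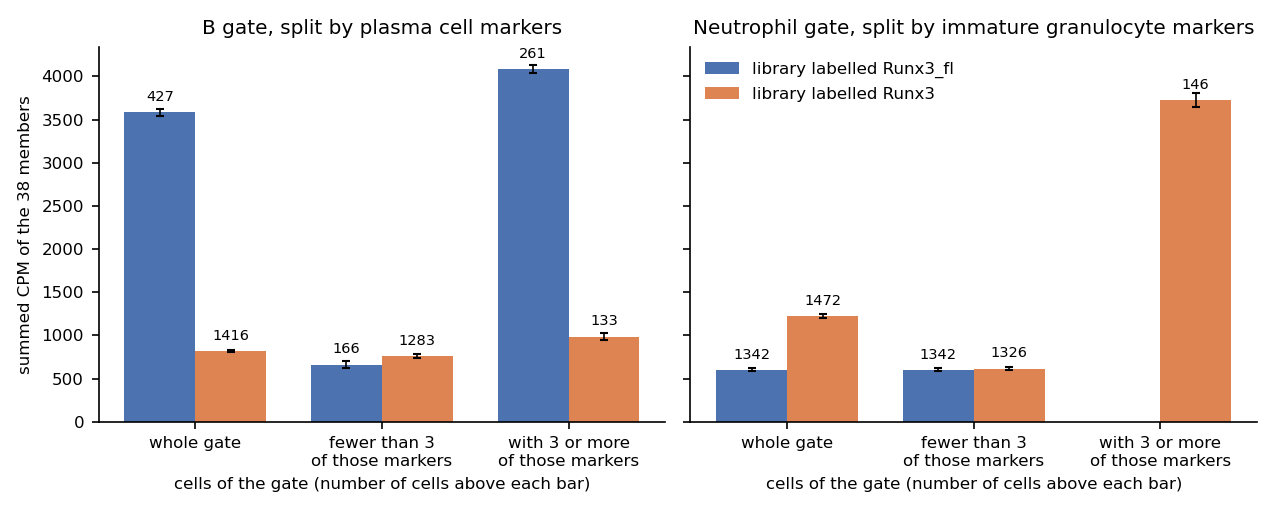
Summed level of the 38 members (CPM, vertical axis) in the B gate (left) and the neutrophil gate (right), for the whole gate, for cells with fewer than 3 and for cells with 3 or more of 5 plasma cell or 6 immature granulocyte markers; whiskers are 95% Poisson intervals and the number over each bar is its cells. Without the marked cells the libraries were at 661.5 and 759.2 CPM in the B gate and at 601.1 and 616.1 CPM in the neutrophil gate. In the marked B-gated cells they were at 4088 and 985.4 CPM. The Runx3_fl-labelled library has no bar at right because 0 of its neutrophil-gated cells had 3 or more immature granulocyte markers.

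In cDC1 of the Runx3_fl-labelled library the class marker Clec9a, and Kit and Flt3, were seen more often in cells with 10 or more members. Clec9a, a receptor for dead cells, had a UMI in 88.89% of these cells and in 43.40% of those with fewer than 5 members. Kit and Flt3, receptors of dendritic cell precursors, were at 84.31% and 50%, and at 95.42% and 48.11%. These groups were taken at full depth, and cells of higher depth hold more of every gene.

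Because an Xist UMI marked some cells of the Runx3_fl-labelled library, the shares were also taken apart by sex-linked transcripts, a split added after the data were seen. Cells with Xist and without a UMI of Ddx3y, Eif2s3y, Kdm5d and Uty made up 23.19% of kept cells of that library, and cells with one of these Y-linked genes and without Xist 59.39%. In the Runx3-labelled library they were 0%, which allows a share of up to 0.0367%, and 74.16%. In T cells of the Runx3_fl-labelled library the share with 5 or more members at equal depth was 39.47% (36.19 to 42.82) of the Xist cells and 36.37% (34.05 to 38.74) of the cells with a Y-linked gene. In B cells it was 35.71% and 33.78%, and in cDC1 31.87% and 23.64%. For the cells with a Y-linked gene alone, T cells were at 36.37% and 2.305% in the 2 libraries and B cells at 33.78% and 1.763%, a difference close to that over all T and B cells.

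Other genes of the cell cycle, not members, were counted from fixed lists, beside the same backgrounds. In T cells 13 of 24 other replication genes and 29 of 32 other mitosis genes were at least 1 log2 unit higher in the Runx3_fl-labelled library, and 0 of either list were as much higher in the Runx3-labelled library. Dut, which removes dUTP before DNA is copied, was at 228.7 and 48.82 CPM, and Cdca8, a subunit of the chromosomal passenger complex, at 63.22 and 6.630 CPM. Of 11 transcription factors of the cycle 6 were past 1 log2 unit, with E2f7 at 22.05 and 2.411 CPM and Foxm1 at 16.72 and 3.918 CPM. The D cyclins lay on the other side. Ccnd3 was at 48.98 and 281.2 CPM, Ccnd2 at 117.6 and 241.7 CPM and Ccnd1 at 4.577 and 16.58 CPM, that is, higher in the Runx3-labelled library, whereas Cdk4 was at 42.22 and 18.38 CPM and Cdk6 at 424.5 and 169.1 CPM. Of 9 inhibitors 2 were higher in the Runx3-labelled library: Cdkn1b, which encodes p27, at 53.23 and 135.0 CPM, and Btg2 at 96.04 and 225.1 CPM. Cdkn2a was counted on the other side, at 1.689 CPM and 0 UMIs.

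In B cells 16 of 24 other replication genes and 28 of 32 other mitosis genes were past 1 log2 unit toward the Runx3_fl-labelled library and 0 toward the other. The B gate differed in makeup, with 3 or more plasma cell markers in 61.12% and 9.393% of its cells. The lists were not counted without these cells. Ccnd3 was at 38.60 and 257.3 CPM, and Btg1, an antiproliferative gene, at 238.8 and 987.6 CPM. Of the 5 D cyclins and kinases 2 were past 1 log2 unit toward each library, with Ccnd2 at 223.4 and 110.6 CPM and Cdk4 at 61.69 and 19.20 CPM toward Runx3_fl. Of the 9 inhibitors 3 were higher in the Runx3-labelled library and 2 in the other, Cdkn2a (9.260 and 3.405 CPM) and Cdkn2c (10.94 and 4.351 CPM). In neutrophils 12 of 24 and 27 of 32 were past 1 log2 unit toward the Runx3-labelled library. The mitosis gene Ckap2l was the exception, at 146.5 and 30.43 CPM. In NK cells 10 of 24 other replication genes were higher in the Runx3-labelled library and 6 of 32 other mitosis genes higher in the Runx3_fl-labelled library, as the roles lay among the members.

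Within a class and library, the cells with 5 or more members were also set against the rest. In T cells of the Runx3_fl-labelled library, 22 of 24 other replication and 30 of 32 other mitosis genes were at least 1 log2 unit higher in cells with 5 or more members, beside 5.61% of genes at 10 CPM. In B cells of that library the counts were 19 and 31, beside 12.4%, in its cDC1 21 and 30, beside 7.44%, and in neutrophils of the Runx3-labelled library 17 and 28, beside 5.14%. Other pairs had lower counts, such as 8 and 14 in T cells of the Runx3-labelled library, beside 5.06%. In the Runx3_fl-labelled library they were 4 and 17 in macrophages, beside 3%, and 5 and 10 in neutrophils, beside 2.8%. In T cells of the Runx3_fl-labelled library, Foxm1 was at 20.24 CPM in cells with 5 or more members and at 2.683 CPM in the others. Mybl2, which encodes B-MYB, was at 18.71 and 0.9755 CPM there, but at 3.641 and 3.599 CPM in T cells of the Runx3-labelled library. Of the 9 inhibitors 1 was higher and 1 lower in T cells of the Runx3_fl-labelled library. In B cells 5 of 9 were lower, beside 17.4% of genes, among them Btg1 at 110.3 and 750.1 CPM and Cdkn1a, which encodes p21, at 29.04 and 79.03 CPM, and 2 were higher, Cdkn2a (11.14 and 1.796 CPM) and Cdkn2c (12.64 and 4.191 CPM). Ccnd3 was at 21.97 and 104.8 CPM in these B cells, and at 48.08 and 52.55 CPM in T cells. Of the 244 B-gated cells with 5 or more members in the Runx3_fl-labelled library, 218 had 3 or more plasma cell markers.

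Across the 13 pairs of class and library with at least 50 such cells, the non-members at 50 CPM or more that were most evenly higher were Tubb5, Hmgb1, Anp32b, Hint1, Erh, Ranbp1, Mdh1, Ssr4, Nme1 and Ran. Tubb5, a beta-tubulin, had log2 ratios from 0.526 to 2.62, with 583.3 and 94.38 CPM in T cells of the Runx3_fl-labelled library. Hmgb1, a chromatin protein, had log2 ratios from 0.463 to 2.18, and Ran, the GTPase of nuclear transport and spindle assembly, from 0.300 to 2.19. Ssr4, a protein of the endoplasmic reticulum, was at 113.1 and 89.50 CPM in the same T cells, a log2 ratio of 0.335. When 10 or more members were asked for, none of these 10 stayed among the leading 10 of the 6 pairs left, which were histone genes such as Hist1h1b (smallest log2 ratio 4.85) and mitosis genes such as Cdca8 (4.42). With a limit of 10 CPM in place of 50, 1 of the 10 stayed among the leading 10. The list thus depended on the limit set for a cell and on that set for CPM.

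All 38 members are protein-coding genes of GENCODE M21 and lie on 16 chromosomes, with at most 7 on 1 chromosome. For 8 of them another annotated gene overlaps on the same strand (for Mcm7, the microRNA genes Mir25, Mir93 and Mir106b), and 5 (Ccnb1, Ccnb2, Tyms, Pcna and Stmn1) have a like-named copy or pseudogene in the annotation that is not among the genes of the files. How reads shared with such copies were assigned was not tested.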

How the data were processed

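The authors deposited filtered gene-by-cell matrices of UMI counts, made by Cell Ranger 7.1.0 per the file headers. The submitters' processing notes name Seurat 4 and mm10. The counts were used as deposited. Cells with 200 to 6000 genes and at most 15% mitochondrial UMIs were kept, as in the study. No doublet caller was run beyond this limit on genes. Cells of the 2 libraries were gated by marker genes, and UMIs of each class were summed per library. Log2 ratios were taken of CPM plus 1, over genes with 10 or more UMIs in classes of at least 50 cells per library. Intervals (95%) were Clopper-Pearson for shares and exact Poisson for sums. Each cell was also thinned to 2000 UMIs with a fixed seed. The steps were checked on simulated data. The members and lists were chosen with earlier results of these data known. Members named in full were the 6 with the most UMIs, the 3 at each end of the ratio in the 3 classes with most cells of 5 or more members, and those above another class in neutrophils, given as a count. Others named were chosen after their values were seen. Statistics were computed in scipy 1.17.1 on arrays of numpy 2.4.6 and pandas 2.3.3 (Python 3.11.15), and plots were drawn in matplotlib 3.10.9.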

Additional observations from a re-analysis of the deposited data

Results flagged for a closer look

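The summed level of the members lay on opposite sides between the libraries in 2 classes, with a log2 ratio of Runx3 over Runx3_fl of -1.98 in T cells and of 1.03 in neutrophils. The neutrophil value was -0.182 with cells of several gates counted and 0.0356 without the cells that had 3 or more immature granulocyte markers. With 1 library per genotype this difference between the classes was not tested.

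Cells over the limit of 6000 genes, which were left out of the kept cells, held the members almost without exception. In the Runx3_fl-labelled library 175 of 175 such cells (100%, 97.91 to 100) and in the Runx3-labelled library 175 of 179 (97.77%, 94.38 to 99.39) had 5 or more members. Their median depth was 47008 and 45577 UMIs, and 108 and 104 of them met several gates.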

How the results depend on the processing

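No paired analysis was possible because each group has 1 library, and no library could be left out. Values are Runx3 over Runx3_fl or Runx3 minus Runx3_fl, and the causes of the shifts were not tested. Differences in the share of cells with 5 or more members are in percentage points. Thinned to 2000 UMIs, they were -12.5 over all kept cells, -15.9 over the 8 classes, -35.5 in T, -32.3 in B, -16.3 in cDC1, -1.65 in macrophage and -2.73 in Ly6c2 cells. With 10 or more members they were -15.9, -20.8, -0.691 in macrophage and -6.73 in Ly6c2 cells, and with 3 or more members -23.8 in T, -26.2 in B, -26.1 in macrophage and -32.9 in Ly6c2 cells. Without Stmn1, Pcna and Mcm2 to Mcm7 they were -15.9, -21.0, -4.96 in macrophage and -8.04 in Ly6c2 cells, and with the same makeup of classes -19.6 over the 8 classes. With a gate of 2 UMIs they were -29.8 over the 8 classes, -14.2 in cDC1, 13.1 in cDC2 and 10.4 in neutrophils, and with 2 further markers -25.9, -35.3 in T, -18.6 in B, -16.8 in Ly6c2 cells and 12.8 in neutrophils. With overlapping gates they were -25.1, -30.2 in T, -7.48 in macrophage and -30.5 in Ly6c2 cells. There a cell counted in each gate it met, and the Ly6c2 gate took all 5544 and 5627 kept cells with Ly6c2.

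The log2 ratio of the summed members with overlapping gates was -2.06 in T, -2.19 in B, -1.04 in cDC1, -0.577 in macrophage and -1.51 in Ly6c2 cells, and turned to -0.239 in NK cells, -0.165 in cDC2 and -0.182 in neutrophils. With a gate of 2 UMIs it was -2.22 in B, -0.0871 in cDC1, -0.498 in Ly6c2 cells and 1.09 in neutrophils, and with 2 further markers -2.04 in B, 0.358 in cDC2, -0.167 in macrophage, -0.420 in Ly6c2 cells and 1.21 in neutrophils. As the mean of per-cell CPM it was -1.76 in T, -1.71 in B, -1.04 in cDC1, 0.152 in cDC2, -0.279 in macrophage, -0.0489 in Ly6c2 cells and 0.530 in neutrophils. With no upper limit on genes it was -2.04 in B, -0.467 in cDC1, -0.140 in macrophage, -0.173 in Ly6c2 cells and 1.36 in neutrophils, and without Stmn1 0.972 in neutrophils. Leaving out marker-positive cells, chosen after seeing the data, gave -2.96 points and 0.199 in B, and 0.369 points and 0.0356 in neutrophils. It left 4 members past 1 log2 unit toward Runx3 and 1 toward Runx3_fl in B, and 1 and 1 in neutrophils, and turned Cenpa (-0.115), Pcna (0.447) and Ube2c (0.323) in B.

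For replication members, thinning gave -1.35 in T, -1.27 in B, 0.489 in NK, -1.44 in cDC1, 0.244 in cDC2, -0.0647 in Ly6c2 cells and 0.460 in neutrophils, and a gate of 2 UMIs -1.62 in B, -0.555 in cDC1 and -0.326 in Ly6c2 cells. For mitosis members, thinning gave -2.56 in B, -0.119 in NK, -1.01 in cDC1, -0.201 in cDC2 and 0.305 in neutrophils, and a gate of 2 UMIs -2.59 in T, -2.89 in B, -0.743 in Ly6c2 cells and, turned, 0.195 in cDC1.

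Members past 1 log2 unit toward Runx3 numbered 2 in NK and 0 in cDC2, macrophage and neutrophil cells with overlapping gates. With a pseudocount of 10 CPM they were 3, 1, 0 and 17, and in macrophages 4 with one of 0.1 CPM, 0 with a filter of 50 UMIs and 1 with the median gene set to 0. Toward Runx3_fl they were 16 in NK, 1 in cDC2, 33 in Ly6c2 cells and 2 in neutrophils with overlapping gates. With a pseudocount of 10 CPM they were 1 in NK, 2 in macrophages and 1 in Ly6c2 cells, with a gate of 2 UMIs 2 in cDC2, 2 in macrophages and 6 in Ly6c2 cells, with a filter of 50 UMIs 4 in macrophages, and with the median gene set to 0 2 in cDC2 and 7 in Ly6c2 cells. Cenpa in B cells turned to -0.0253 and Tpx2 in Ly6c2 cells to -1.28 with overlapping gates. Of the 10 accompanying genes 1 was shared at 10 CPM and 0 with 10 or more members.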

Other observations

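Of the cells that met several gates, 59.41% of 1148 in the Runx3_fl-labelled library and 41.73% of 1397 in the Runx3-labelled library had 5 or more members, and 17.77% and 2.065% at equal depth. Their median depth was 16578.5 and 13031 UMIs. Of the cells that met no gate, 15.70% of 2899 and 5.828% of 978 had 5 or more members, and 2.491% and 1.486% at equal depth. In the Ly6c2 gate of the Runx3-labelled library, 70 cells had 3 or more immature granulocyte markers, and 20.00% of these (11.39 to 31.27) had 5 or more members.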
